A study of Mus musculus with 4 samples.

Results

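The genes described here are core genes of the Notch pathway: the receptors Notch1, Notch2 and Notch3, the ligands Jag1, Dll1 and Dll4, and the transcriptional targets Hes1, Hey1, Hey2 and Heyl. Notch4 and Jag2 are described with a wider pathway list. The 10 genes were picked by name, with earlier results of these data known. They come from the 22716 genes listed in at least 1 of the 4 count tables, and all 10 were listed in every table. They were measured in mouse sciatic nerve by Drop-seq, a droplet method that tags each captured mRNA with a unique molecular identifier (UMI).

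All mice were wild-type CD1, and each condition was represented by 1 library. The uninjured library held cells from adult nerves of both sides. The 3 DPI library held cells of the adult distal nerve 3 days after a unilateral resection, in which a segment of nerve was removed and the distal end was placed so that axons could not regrow into it. A neonatal bead library came from P2 to P3 nerves and, like both adult libraries, was cleared of debris with myelin removal beads. A neonatal FACS library came from P3 to P4 nerves and was instead sorted for Hoechst-high, propidium iodide-negative cells, so age and preparation cannot be told apart between the neonatal libraries. With 1 library per condition there were no replicates and no test between conditions was possible. All intervals below are exact 95% intervals that cover counting error only, and a difference between conditions is a difference between libraries.

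Notch receptors sit on the cell surface and are activated by Delta-like and Jagged ligands on a neighbouring cell. Binding leads to cleavage of the receptor by ADAM and gamma-secretase proteases, and the freed intracellular domain joins RBPJ in the nucleus and switches on genes of the Hes and Hey families, which encode transcriptional repressors. In blood vessels the pathway is known for separating tip from stalk cells during sprouting, for arterial identity, and for the recruitment and maturation of pericytes and smooth muscle. In peripheral nerve it is also known for roles in the Schwann cell lineage.

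The libraries held 2000 to 6200 barcodes and 4513814 to 8123103 UMIs, and 1837 to 5420 cells per library were kept, with medians of 996.5 to 1797.5 UMIs per cell. Pairs of libraries shared 0 to 3 barcodes. Cells were clustered without the Notch genes, and clusters were named from marker genes as endothelial-like, vascular smooth muscle (VSM)/pericyte-like, Schwann-like, endoneurial-like, epineurial-like, perineurial-like or immune-like. At 3 DPI no cluster was named perineurial-like, and 472 mesenchymal cells with 31.7% of the class UMIs fitted no layer and are called other mesenchymal. The endothelial-like classes held 418, 247, 478 and 146 cells in the uninjured, 3 DPI, neonatal bead and neonatal FACS libraries, and the VSM/pericyte-like classes 183, 80, 370 and 130 cells. All 6 endothelial and all 7 VSM/pericyte (mural) markers were detected in these classes. The neonatal perineurial-like cluster was led by genes that other mesenchymal cells share, such as Dcn and Igfbp6, so its values are given but not compared with the adult class. A level is given as CPM, the UMIs of a gene per 1000000 UMIs summed over the cells of a class, and fewer cells that transcribe a gene cannot be told apart from less mRNA in each. Markers of one class were also counted at low levels in others, as RNA free in the droplets or mixed droplets can give. In Schwann-like cells the summed endothelial markers reached 0.603% to 2.33%, and the mural markers 0.283% to 0.614%, of their level in the vessel cells of the same library. Shares were higher elsewhere, up to 8.56% for mural markers in endothelial-like, 6.47% for endothelial markers in VSM/pericyte-like and 7.26% for Schwann markers in immune-like cells.

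By level, the Notch genes were mostly vascular. In the uninjured nerve 9 of 10 had their highest CPM among the named classes in the endothelial-like or VSM/pericyte-like class, where 30.1% of the 12652 genes with at least 10 UMIs did so. The same count was 9 of 10 at 3 DPI, against 32.1% of all genes, and 8 of 10 in the neonatal bead library, against 30.1%. In the neonatal FACS library it was 6 of the 8 genes with at least 10 UMIs, against 35.4% of all genes, with Dll1 and Hey2 left out at 8 UMIs each. Notch2 was the exception in all 4 libraries and Jag1 in both neonatal libraries. Dll1, Dll4, Hey1 and Notch1 were endothelial, whereas Notch3, Hes1, Hey2 and Heyl were mural. At 3 DPI the count was 5 when each cell was thinned to 500 UMIs. Thinning leaves fewer UMIs per gene, and the genes still tested and the share of all genes are not given for that setting. The share of a gene's UMIs also depends on the size of a class. Of all class UMIs at 3 DPI, endothelial-like cells held 15.25%, VSM/pericyte-like cells 3.12% and other mesenchymal cells 31.7%. At 3 DPI both vascular classes together held 41.8% of the Notch1, 32.2% of the Jag1, 31.4% of the Hes1 and 25.7% of the Heyl UMIs. The other mesenchymal cells of that library held 35.5% of its Notch2, 33.5% of its Jag1, 31.2% of its Hes1 and 44.0% of its Heyl UMIs. The Notch2, Jag1 and Hes1 shares were near their share of all UMIs. Levels in the other mesenchymal cells were 60.3 CPM of Notch2, 69.4 of Jag1, 68.9 of Hes1, 41.4 of Notch1, 20.7 of Heyl and 18.5 of Notch3, with at most 9 UMIs of each of the other members. In this class 5 cells held 33 of the 48 Heyl UMIs and 22 of the 43 Notch3 UMIs. Its summed mural markers were 564 CPM, against 156 in epineurial-like and 223 in endoneurial-like cells at 3 DPI. Their part in the Heyl and Notch3 values was not tested.

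**Figure D1:**
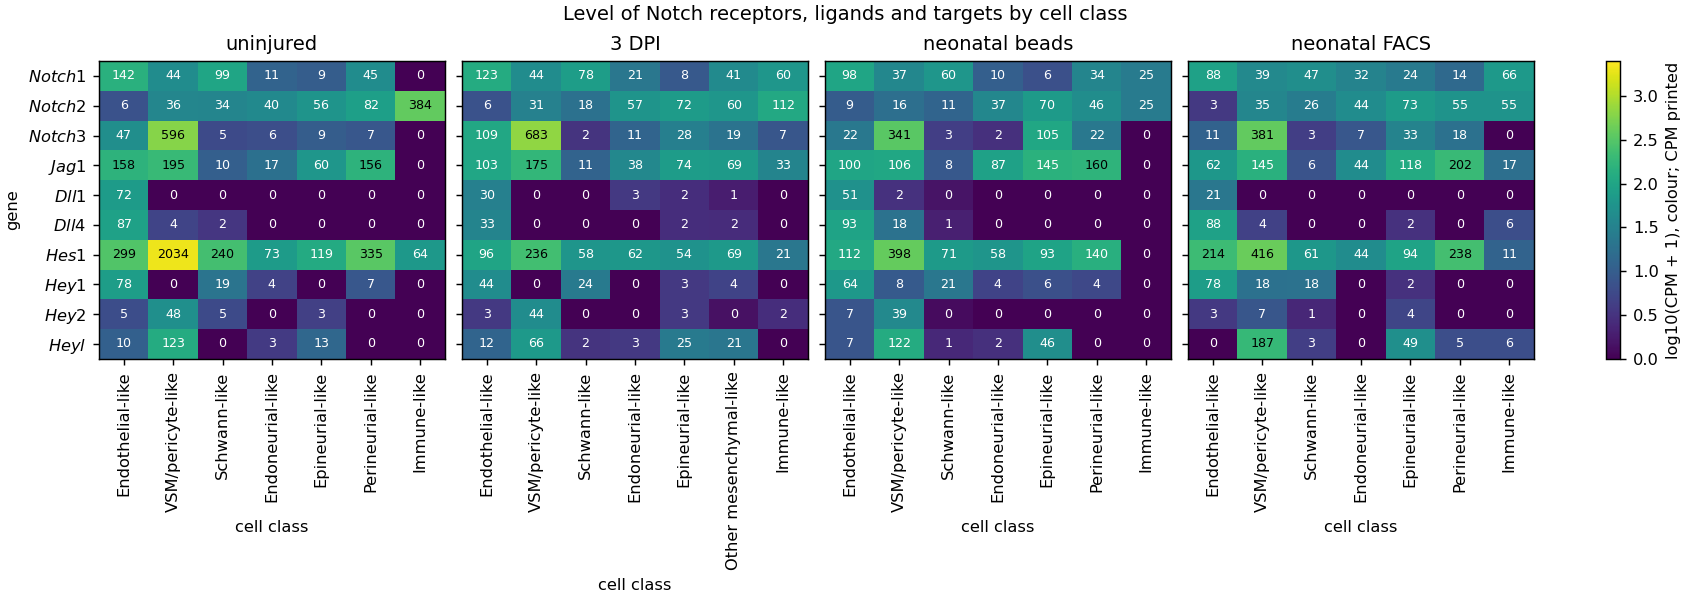
Level of each Notch receptor, ligand and target (rows) in each marker-defined class (columns), in 1 panel per library, as CPM of summed UMIs. In the uninjured panel the VSM/pericyte-like class carries the highest levels of Hes1 (2034 CPM), Notch3 (596 CPM) and Heyl (123 CPM), and the endothelial-like class those of Dll1 (71.6 CPM), Dll4 (86.8 CPM) and Hey1 (77.7 CPM).

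Notch1 (chr2:26457902-26503822, build GRCm38.p6 as are all positions here), the receptor best known from endothelial and lymphoid cells, was highest in endothelial-like cells in every library. Its level there was 142 CPM (123 to 164) in the uninjured nerve, 123 (104 to 146) at 3 DPI, 97.5 (79.3 to 119) in the neonatal bead library and 88.4 (60.9 to 124) in the neonatal FACS library. The adult intervals overlap, and the fold at 3 DPI was 0.867 (0.691 to 1.09). Schwann-like cells were next or close to it, at 99.4, 77.5, 59.5 and 46.8 CPM in the same order. The endothelial and Schwann intervals overlapped in both adult libraries and did not overlap in the neonatal beads. In the neonatal FACS library immune-like cells ranked second, at 66.4 CPM (12 UMIs), with an interval that overlapped the endothelial one. At 3 DPI immune-like cells held 59.6 CPM (34 UMIs), with an interval that overlapped that of Schwann-like cells. In the neonatal beads the fold over the uninjured nerve was 0.685 (0.531 to 0.878) in endothelial-like and 0.599 (0.428 to 0.856) in Schwann-like cells. At least 1 Notch1 UMI was found in 27.5%, 26.7%, 15.7% and 19.2% of endothelial-like cells. After thinning each cell to 500 UMIs these shares were 7.79%, 8.06%, 4.09% and 7.58%. Because the neonatal bead library held 3671 Schwann-like cells, endothelial-like cells contributed 25.6% of its Notch1 UMIs, compared with 70.6% in the uninjured nerve. A lymphatic-like sub-cluster of 10 uninjured cells, marked by Ccl21a, Lyve1 and Mmrn1, held 595 CPM from 10 UMIs.

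Notch1 in Schwann-like cells was not tied to 1 stage. In the uninjured nerve non-myelinating Schwann-like cells had 116 CPM (81.4 to 161) and myelinating cells 48.7 CPM (15.8 to 114), with overlapping intervals. In the neonatal FACS library the order was dividing cells at 96.1 CPM (63.9 to 139), non-myelinating cells at 51.4 CPM (38.7 to 66.8) and myelinating cells at 17.9 CPM (9.77 to 30), where the first pair of intervals overlapped and the last pair did not. A group of 39 cells marked by Pou3f1 had 5 Notch1 UMIs, or 144 CPM (46.9 to 337). In the neonatal beads dividing cells had 80.0 CPM (62.5 to 101), the Pou3f1 group of 471 cells 66.6 CPM (48.8 to 88.9) and non-myelinating cells 50.2 CPM (41.6 to 60), and the intervals of the dividing and non-myelinating cells did not overlap.

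Notch2 (chr3:98013538-98150367), a receptor with broad expression, was lowest in endothelial-like cells in every library. Endothelial-like cells held 6.09, 6.26, 8.87 and 2.68 CPM in the uninjured, 3 DPI, neonatal bead and neonatal FACS libraries. VSM/pericyte-like cells held more, at 35.8, 30.6, 16.3 and 35.3 CPM in the same order. Epineurial-like mesenchymal cells, which form the outer nerve sheath, held 56.3, 71.9, 69.7 and 73.2 CPM, and endoneurial-like cells, which lie among the axons, held 40.2, 57.4, 36.7 and 43.9 CPM. At 3 DPI the highest level was in immune-like cells, at 112 CPM from 64 UMIs, with an interval that overlaps that of epineurial-like cells. The immune-like class of the uninjured nerve also ranked first, but with 6 UMIs in 15 cells its 384 CPM has little precision, and its interval overlaps that of perineurial-like cells at 81.9 CPM. In Schwann-like cells Notch2 was 33.9 CPM in the uninjured nerve and 11.5 CPM in the neonatal beads, 2.96-fold lower (fold 0.337, 0.182 to 0.665). The 3 DPI and neonatal FACS Schwann-like cells lay between them, at 17.7 and 25.7 CPM.

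Notch3 (chr17:32120820-32166896), the receptor of pericytes and arterial smooth muscle, was the most strongly mural of the receptors. VSM/pericyte-like cells held 596 CPM (504 to 699) in the uninjured nerve, 683 (580 to 799) at 3 DPI, 341 (291 to 396) in the neonatal beads and 381 (312 to 460) in the neonatal FACS library. Both neonatal levels were below both adult levels, with intervals that did not overlap, and the adult levels overlapped each other. The fold over the uninjured nerve was 1.15 (0.909 to 1.44) at 3 DPI and 0.571 (0.456 to 0.717) in the neonatal beads. Notch3 UMIs were present in 49.7%, 67.5%, 33.0% and 50.8% of VSM/pericyte-like cells, and in 29.3%, 33.8%, 14.9% and 21.1% after thinning to 500 UMIs. Schwann-like cells, which should lack Notch3, held 4.85, 2.21, 3.24 and 3.21 CPM.

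Notch3 was also counted in the endothelial-like class, where it was higher at 3 DPI. The class held 47.2 CPM (62 UMIs) in the uninjured nerve, 109 CPM (122 UMIs) at 3 DPI, 21.7 CPM (22 UMIs) in the neonatal beads and 10.7 CPM (4 UMIs) in the neonatal FACS library, and the fold at 3 DPI was 2.31 (1.69 to 3.19). These UMIs sat in few cells. Sub-clustering set apart endothelial-like cells that carried mural markers as well: 27 cells with 55 of the 62 UMIs in the uninjured nerve and 86 cells with 116 of the 122 UMIs at 3 DPI. In the 27 and 86 cells Notch3 was 213 and 152 CPM. Their median depths were 4941 and 5404.5 UMIs per cell, compared with 1868 and 1996 for the classes as a whole, and 5 cells held 59.7% and 59.0% of the class's Notch3 UMIs. The summed mural markers were 8307 CPM in the uninjured sub-cluster and 3267 CPM in that at 3 DPI, whose leading genes included none of these markers and instead the venous genes Lrg1, Selp and Vwf, compared with 32395 and 28980 CPM in the VSM/pericyte-like classes. Without these sub-clusters, an alternative chosen after seeing the data, Notch3 in the endothelial-like class was 6.64 CPM from 7 UMIs and 17 CPM from 6 UMIs, a fold of 2.56 (0.711 to 8.90). With each cell thinned to 500 UMIs the fold was 0.835 and the shares of cells with a UMI were 1.70% uninjured and 1.42% at 3 DPI. Whether these cells were doublets, or both cell types' mRNA in 1 droplet, was not tested.

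**Figure D2:**
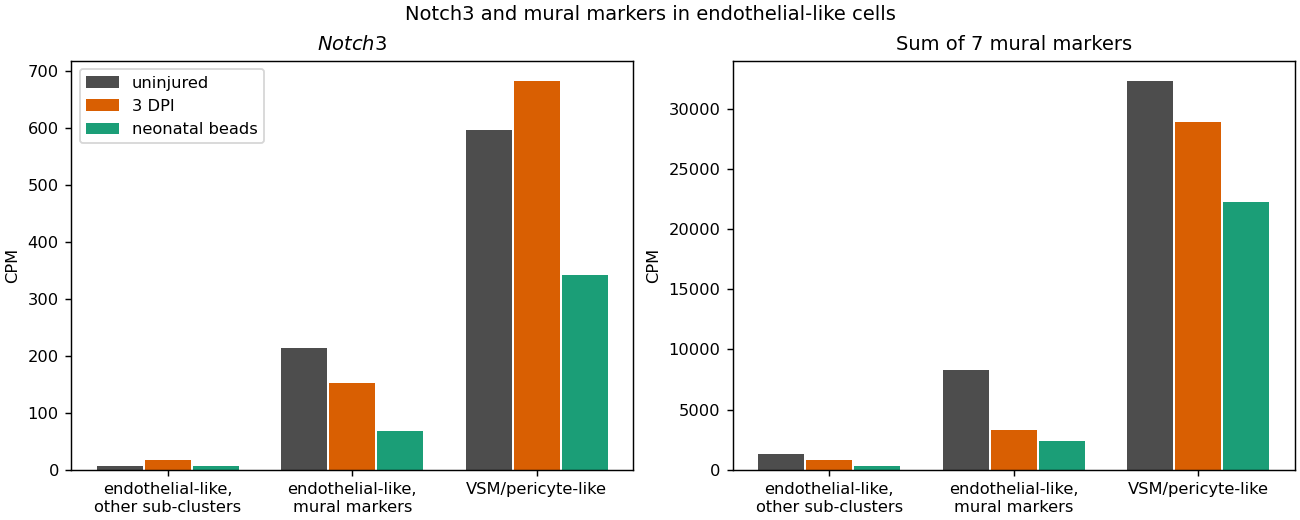
Notch3 level (CPM) and the summed level of the 7 mural markers (CPM) in endothelial-like cells outside the mural-marker sub-cluster, in that sub-cluster, and in VSM/pericyte-like cells, in 3 libraries. Notch3 in endothelial-like cells lies almost wholly in the sub-cluster that also carries mural markers, at 213 CPM uninjured and 152 CPM at 3 DPI against 6.64 and 17 CPM in the others.

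Among mesenchymal cells Notch3 was highest in the epineurial-like class of the neonatal beads, second there to VSM/pericyte-like cells. Epineurial-like cells held 9.19 CPM (8 UMIs) in the uninjured nerve, 28.1 (32 UMIs) at 3 DPI, 105 (18 UMIs) in the neonatal beads and 32.5 (16 UMIs) in the neonatal FACS library. The fold over the uninjured nerve was 3.06 (1.38 to 7.67) at 3 DPI and 11.4 (4.71 to 30.3) in the neonatal beads. At 3 DPI it was 1.70 at resolution 0.8 and 1.59 with each cell assigned from its own markers. The summed mural markers in epineurial-like cells were 175 CPM uninjured and 156 CPM at 3 DPI, and were higher in the neonatal libraries, at 889 CPM in the beads and 535 CPM in the FACS library. Their part in the Notch3 values was not tested. In endoneurial-like cells Notch3 was 5.61 CPM uninjured and 11.3 CPM at 3 DPI, from 6 and 17 UMIs, and the interval of the fold of 2.02 reached from 0.760 to 6.26.

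Jag1 (chr2:137081451-137116520), a Jagged ligand that endothelial and smooth muscle cells present to each other, was shared among classes. VSM/pericyte-like cells held 195, 175, 106 and 145 CPM in the uninjured, 3 DPI, neonatal bead and neonatal FACS libraries. Endothelial-like cells held 158 (138 to 181), 103 (85.0 to 124), 99.5 and 61.6 CPM. The endothelial level was lower at 3 DPI (fold 0.650, 0.513 to 0.820) and in the neonatal beads (0.628, 0.49 to 0.80), and neither passed 2-fold. In the uninjured nerve 5 endothelial-like cells held 67 of the 208 Jag1 UMIs, and at 3 DPI 5 held 39 of the 115. Perineurial-like cells, the barrier layer around each fascicle, held 156 CPM in the uninjured nerve, where their interval overlapped those of both vascular classes. The neonatal perineurial-like clusters ranked first at 160 and 202 CPM.

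Jag1 in mesenchymal cells ran the other way. Endoneurial-like cells held 16.8 CPM (18 UMIs) in the uninjured nerve, 38.0 CPM (57 UMIs) at 3 DPI, 86.9 CPM (45 UMIs) in the neonatal beads and 43.9 CPM (18 UMIs) in the neonatal FACS library. The uninjured value was the lowest of the 4, and the fold over it was 2.26 (1.31 to 4.08) at 3 DPI, 5.16 (2.93 to 9.48) in the neonatal beads and 2.61 in the neonatal FACS library. After thinning the 3 DPI fold was 1.63. Epineurial-like cells held 59.7, 73.7, 145 and 118 CPM, a fold of 2.43 (1.45 to 3.99) in the neonatal beads and 1.97 in the neonatal FACS library, and at resolution 0.8 the former was 1.15. Schwann-like cells, at 6.42 to 11.1 CPM, held little Jag1 in any library.

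Dll1 (chr17:15367354-15376932) and Dll4 (chr2:119325784-119335666), the Delta-like ligands of endothelium, were the most restricted of the 10 genes. Dll1 was 71.6 CPM (94 UMIs) in uninjured endothelial-like cells and was listed at 0 UMIs in every other class, where a count of 0 allows up to 7.27 CPM in Schwann-like and 11.9 CPM in VSM/pericyte-like cells. It was 29.5 CPM (33 UMIs) at 3 DPI, 51.2 CPM (52 UMIs) in the neonatal beads and 21.4 CPM (8 UMIs) in the neonatal FACS library. At 3 DPI it was 2.42-fold lower than in the uninjured nerve (fold 0.412, 0.269 to 0.619), and the neonatal bead level had a fold of 0.716 (0.50 to 1.01). These UMIs sat in few cells: 5 endothelial-like cells held 40 of the 94 uninjured UMIs, and 5 held 19 of the 33 at 3 DPI.

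Dll4 was 86.8 CPM (114 UMIs) in uninjured endothelial-like cells and 33.1 CPM (37 UMIs) at 3 DPI. The neonatal beads held 92.6 CPM (94 UMIs) and the neonatal FACS library 88.4 CPM (33 UMIs), so that these 3 libraries lay within 86.8 to 92.6 CPM and the 3 DPI library was the low one. The level at 3 DPI was 2.62-fold lower than uninjured (fold 0.381, 0.256 to 0.557), and that in the neonatal beads had a fold of 1.07 (0.803 to 1.41). Dll4 UMIs were found in 17.7%, 8.10%, 15.5% and 15.1% of endothelial-like cells, and in 2.92%, 0.474%, 5.63% and 6.82% after thinning to 500 UMIs. At 3 DPI 20 of the 37 UMIs came from 5 cells. The fold of Dll4 at 3 DPI was between 0.139 and 0.393 in all alternative settings. That of Dll1 was 0.899 when each cell was thinned to 500 UMIs. Both ligands were lower at 3 DPI also without the sub-clusters that held mural markers, Dll1 by 3.96-fold (6 and 71 UMIs) and Dll4 by 4.13-fold, at 25.5 against 105 CPM. These remainders are not alike in make-up, since at 3 DPI the cells left out (86 of 247) were the ones highest in venous markers, while in the uninjured nerve 27 cells were left out and 91 venous-like cells stayed. The make-up of the endothelial-like class differed at the same time: summed venous markers were 2120 CPM uninjured and 3277 CPM at 3 DPI, while capillary markers were 1761 and 776 CPM and arterial markers 1577 and 1044 CPM. The part of this shift in the Delta-like values was not tested. Outside the endothelium Dll4 reached 18.4 CPM (9 UMIs) in neonatal bead VSM/pericyte-like cells, against 3.97 CPM (1 UMI) uninjured, a ratio of 4.62 with an interval from 0.640 to 202. It was 1.77 with each cell assigned from its own markers and 0.54 after thinning.

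Hes1 (chr16:30065357-30067796), a repressor switched on by Notch and by other signals, was the target with the largest difference between libraries. In VSM/pericyte-like cells it was 2034 CPM (1862 to 2218) in the uninjured nerve, 236 (178 to 308) at 3 DPI, 398 (344 to 458) in the neonatal beads and 416 (344 to 498) in the neonatal FACS library. The uninjured level stood far above the other libraries, whose neonatal members overlapped each other. At 3 DPI it was 8.61-fold lower (fold 0.116, 0.0861 to 0.154), and in the neonatal beads 5.12-fold lower. Hes1 UMIs were found in 57.4%, 30%, 30% and 40% of these cells, and in 41.4%, 4.23%, 16.8% and 15.8% after thinning to 500 UMIs. The level did not come from a few cells in the uninjured nerve, where 5 cells held 21.7% of the 512 UMIs. At 3 DPI 5 cells held 27 of the 54 UMIs. Across the alternative settings the 3 DPI fold in this class stayed between 0.0785 and 0.152. In the uninjured nerve Hes1 was 745 CPM in pericyte-like and 2994 CPM in smooth muscle-like cells. The 80 cells of this class at 3 DPI were not divided in this way. The part of the class's make-up in the fold was not tested.

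The uninjured library also had the highest Hes1 in other classes. Endothelial-like cells held 299, 95.8, 112 and 214 CPM in the uninjured, 3 DPI, neonatal bead and neonatal FACS libraries, and Schwann-like cells 240, 57.6, 71.2 and 61.5 CPM. At 3 DPI Hes1 was 3.12-fold lower in endothelial-like cells (fold 0.321, 0.256 to 0.398), 4.17-fold lower in Schwann-like cells (0.240, 0.149 to 0.373) and 2.23-fold lower in epineurial-like cells (0.448, 0.321 to 0.620). After thinning the endothelial fold was 0.506, and the epineurial fold was 0.55 to 0.648 in the 3 settings that ended the call, resolution 0.8, assignment from a cell's own markers and thinning. Endoneurial-like cells differed less, with 72.9 CPM uninjured and 62.0 CPM at 3 DPI (fold 0.850, 0.623 to 1.16). In the neonatal beads Hes1 was 2.66-fold lower in endothelial-like cells, with a fold of 0.547 after thinning, and 3.37-fold lower in Schwann-like cells.

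Within Schwann-like cells Hes1 was a gene of the non-myelinating and dividing groups. In the uninjured nerve non-myelinating cells held 307 CPM (248 to 375) and myelinating cells 38.9 CPM (10.6 to 99.7), and these intervals did not overlap. The neonatal FACS library showed the same order, with 94.3 CPM (76.8 to 115) in non-myelinating and 10.2 CPM (4.41 to 20.1) in myelinating cells. In the neonatal beads dividing cells held 83.4 CPM, non-myelinating cells 81.1 CPM (70.1 to 93.4) and the group marked by Pou3f1, a factor of the promyelinating stage, 23.2 CPM (13.2 to 37.6). The 142 Schwann-like cells at 3 DPI formed a single group.

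Immediate-early genes, which cells switch on within minutes of stimulation and also during dissociation, were highest in the uninjured library as well. Their sum over Fos, Fosb, Jun, Junb, Egr1, Ier2, Atf3 and Zfp36, a list added after seeing the data, was 30917, 6384, 13935 and 2503 CPM in VSM/pericyte-like cells of the uninjured, 3 DPI, neonatal bead and neonatal FACS libraries. In endothelial-like cells it was 22335, 8491, 5226 and 1513 CPM, and in Schwann-like cells 44869, 6765, 8009 and 1662 CPM. In endoneurial-like cells the sum was 41527, 8591, 7858 and 3322 CPM, where Hes1 was 72.9, 62.0, 57.9 and 43.9 CPM. The neonatal FACS library had the lowest sum in each of these classes. It also had the lowest Hes1 in endoneurial-like cells, but not in VSM/pericyte-like, endothelial-like or Schwann-like cells. Its Schwann-like Hes1 level, 61.5 CPM, lay within the 3 DPI interval (37.6 to 84.4). The part of the immediate-early genes in the Hes1 values was not tested.

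**Figure D3:**
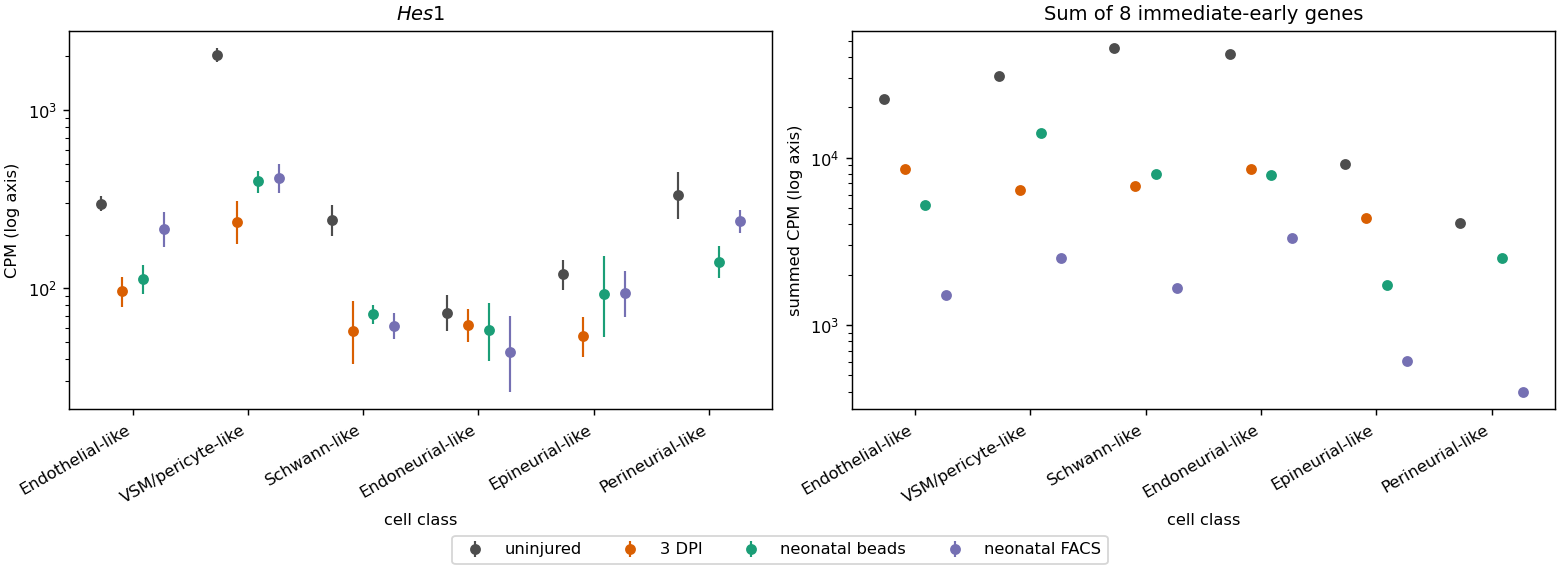
Hes1 level (left, CPM, log axis) and summed level of the 8 immediate-early genes (right, CPM, log axis) by class, with 1 point per library. In VSM/pericyte-like cells the uninjured point is at 2034 CPM of Hes1 and the other libraries lie between 236 and 416 CPM, while the immediate-early sum runs from 2503 to 30917 CPM.

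Hey1 (chr3:8663359-8667038), a Notch target of endothelium, was at its highest level in endothelial-like cells in every library. Endothelial-like cells held 77.7 CPM (102 UMIs) in the uninjured nerve, 43.8 CPM (49 UMIs) at 3 DPI, 64.0 CPM (65 UMIs) in the neonatal beads and 77.7 CPM (29 UMIs) in the neonatal FACS library. The 3 DPI library was the lowest, at a fold of 0.564 (0.393 to 0.801), and the neonatal beads had a fold of 0.824 (0.594 to 1.14). Schwann-like cells came next at 18.3 to 24.4 CPM in all 4 libraries, and at 3 DPI their interval overlapped the endothelial one. In number of UMIs they led in both neonatal libraries, with 53.1% of the Hey1 UMIs in the beads and 53.3% in the FACS library. VSM/pericyte-like cells had no Hey1 UMI in either adult library, where a count of 0 allows up to 11.9 CPM uninjured and 13.1 CPM at 3 DPI.

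Hey2 (chr10:30832359-30842783), the family member known from arteries and smooth muscle, was rare and mural. VSM/pericyte-like cells held 47.7 CPM (12 UMIs), 43.8 CPM (10 UMIs), 38.8 CPM (19 UMIs) and 7.05 CPM (2 UMIs) in the uninjured, 3 DPI, neonatal bead and neonatal FACS libraries, and the fold at 3 DPI was 0.918 (0.355 to 2.32). Endothelial-like cells held 2.68 to 6.90 CPM.

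Hey2 is shown by sequence because, of the 7 genes that could be searched, it alone had a full match to the RBPJ core motif GTGGGAA near its start. RefSeq promoter entries, 250 bases before to 50 bases after the start (GRCm38.p6), were given for these 7, and Hes1, Hey1 and Heyl were not searched. GTGGGAA, searched on both strands, was in 6.38% of 32851 promoter entries, and at least 2 matches were in 0.256%. GTGAGAA was in 4.59%, and in none of the 7. Both Hey2 matches are printed 5′ to 3′ on the gene's strand, which is the minus strand, with the matched bases in capitals. The upstream one, at bases -207 to -201 from the start (chr10:30842974-30843000), lies on the opposite strand and the other, at bases -4 to 3 (chr10:30842771-30842797), on the same strand.
Hey2 upstream match: cgcggtggcaTTCCCACgcctctgcca
Hey2 match at the start: gggctgcagcGTGGGAAagaacctcca
The 250 bases before the start (chr10:30842784-30843033) hold the upstream match in full and the first bases of the other at their end.
Hey2 upstream region: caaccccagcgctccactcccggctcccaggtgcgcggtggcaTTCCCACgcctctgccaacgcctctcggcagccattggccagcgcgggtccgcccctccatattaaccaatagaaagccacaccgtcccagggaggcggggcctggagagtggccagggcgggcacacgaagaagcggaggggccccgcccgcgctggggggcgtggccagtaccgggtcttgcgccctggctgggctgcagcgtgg
A match is a description of letters in this window and does not show that RBPJ binds there.

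Heyl (chr4:123233556-123249870), a target known from mural cells, was also highest in VSM/pericyte-like cells in every library. They held 123 CPM (31 UMIs) in the uninjured nerve, 65.6 CPM (15 UMIs) at 3 DPI, 122 CPM (60 UMIs) in the neonatal beads and 187 CPM (53 UMIs) in the neonatal FACS library. The 3 DPI value was the lowest, but its fold of 0.533 had an interval from 0.267 to 1.02, and that of the neonatal beads was 0.994 (0.634 to 1.59). Epineurial-like cells were next with 12.6, 24.6, 46.5 and 48.8 CPM, a fold of 1.94 (0.938 to 4.33) at 3 DPI, 3.68 (1.28 to 10) in the neonatal beads and 3.86 in the neonatal FACS library. At 3 DPI a single epineurial-like cell held 13 of the 28 Heyl UMIs of its class. As for Notch3, the summed mural markers of the epineurial-like class were higher in the neonatal libraries.

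Vessel cells were then divided further, with sub-clusters named from arterial, venous, pericyte and smooth muscle markers by thresholds set after the clusters had been seen. The ratios that follow describe groups cut from the same cells and are not tests. In the uninjured nerve 30 arterial-like endothelial cells held 676 CPM of Jag1 and 91 venous-like cells 111 CPM, a ratio of 6.10 (4.02 to 9.50). Hey1 was 194 CPM (29 UMIs) in arterial-like and 3.69 CPM (1 UMI) in venous-like cells, and Dll4 was 127 CPM (19 UMIs) and 11.1 CPM (3 UMIs). Hey2, although mainly mural, had 6 of its UMIs in the arterial-like cells (40.2 CPM) and 1 in the venous-like cells. Notch1, at 114 and 170 CPM (ratio 0.669, 0.360 to 1.19), and Hes1, with a ratio of 1.33 (0.879 to 1.99), had intervals of the ratio that included equal levels.

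In the neonatal bead library Jag1, Dll4, Hey1 and Hey2 were again higher in the 47 arterial-like than in the 70 venous-like cells. Jag1 was 529 and 143 CPM (ratio 3.69, 2.22 to 6.32), and Dll4 163 CPM (16 UMIs) and 6.23 CPM (1 UMI). Hey1 was 153 CPM (15 UMIs) and 0, a ratio of 8.16 when the venous-like group is set to 3 UMIs, with a lower limit of the interval of 5.85. Hey2 was 71.2 CPM (7 UMIs) and 0, a ratio of 3.81 in the same way, with a lower limit of 2.35. Notch1, whose interval included equal levels in the uninjured nerve, was 203 and 87.3 CPM (2.33, 1.12 to 4.99). The order of Dll1 was reversed. Dll1 was 221 CPM in arterial-like and 92.4 CPM in venous-like cells of the uninjured nerve (2.39, 1.38 to 4.19), but 71.2 and 231 CPM in the neonatal beads (0.309, 0.116 to 0.702).

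The endothelial-like cells left unnamed pool more than 1 kind. In the uninjured nerve 149 of them were led by Ptn, Abcb1a and Cldn5 and 111 by Cd36, Gpihbp1 and Rgcc. They held Dll4 and Hey1 but little Hey2. They numbered 260 in the uninjured nerve, with 144 CPM of Dll4, 113 CPM of Hey1, 64.8 CPM of Jag1 and 21.1 CPM of Dll1. The 242 such cells of the neonatal beads held 113 CPM of Dll4 and 81.1 CPM of Hey1. Hey2 had no UMI in either group, where a count of 0 allows up to 4.86 and 8.69 CPM. No sub-cluster at 3 DPI was named arterial, and the group that scored highest for venous markers (4069 CPM summed) was the 86 cells with mural markers. Dll4 was 36.6 CPM in these 86 cells and 34.9 CPM in 144 unnamed cells. The neonatal FACS library held 22 arterial-like cells, with 208 CPM of Dll4 and 192 CPM of Hey1, and 3 venous-like cells, too few to set beside them. In these 22 cells Hey2 and Dll1 had 0 UMIs and Jag1 was 95.9 CPM (6 UMIs). Other endothelial-like cells of that library, outside the mural-marker sub-cluster, held 58.4 CPM of Jag1 (ratio 1.64, 0.530 to 4.36).

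Pericyte-like and smooth muscle-like cells divided the mural genes between them. In the uninjured nerve 99 pericyte-like cells held 885 CPM of Notch3 and 84 smooth muscle-like cells 381 CPM, a ratio of 2.32 (1.65 to 3.30). Heyl was 196 and 69.3 CPM (2.82, 1.27 to 6.71). Hes1 ran the other way at 745 and 2994 CPM (0.249, 0.194 to 0.317), and Hey2 had 0 UMIs in pericyte-like cells, which allows up to 27.9 CPM, and 12 UMIs in smooth muscle-like cells (83.2 CPM). The immediate-early sum was 23477 CPM in the pericyte-like and 36455 CPM in the smooth muscle-like group.

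In the neonatal beads the Hey2 difference was seen again and the Notch3 difference was not. There Hey2 had 0 UMIs in 154 pericyte-like cells and 17 UMIs in 186 smooth muscle-like cells (67.6 CPM), whereas the neonatal FACS library had 0 and 2 UMIs, too few to compare. Hes1 was 287 and 509 CPM in the beads (0.565, 0.395 to 0.795) and 423 and 391 CPM in the FACS library (1.08, 0.679 to 1.76). Notch3 was 306 and 378 CPM (0.809, 0.563 to 1.15), and in the FACS library 383 and 449 CPM. Heyl was 165 and 95.4 CPM in the neonatal beads (1.73, 0.961 to 3.13) and 179 and 290 CPM in the FACS library (0.616, 0.333 to 1.16). Jag1 was lower in pericyte-like cells of the neonatal beads, at 42.8 against 155 CPM (0.276, 0.104 to 0.624), and of the FACS library, at 132 against 275 CPM, and was 168 and 215 CPM in the uninjured nerve.

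**Figure D4:**
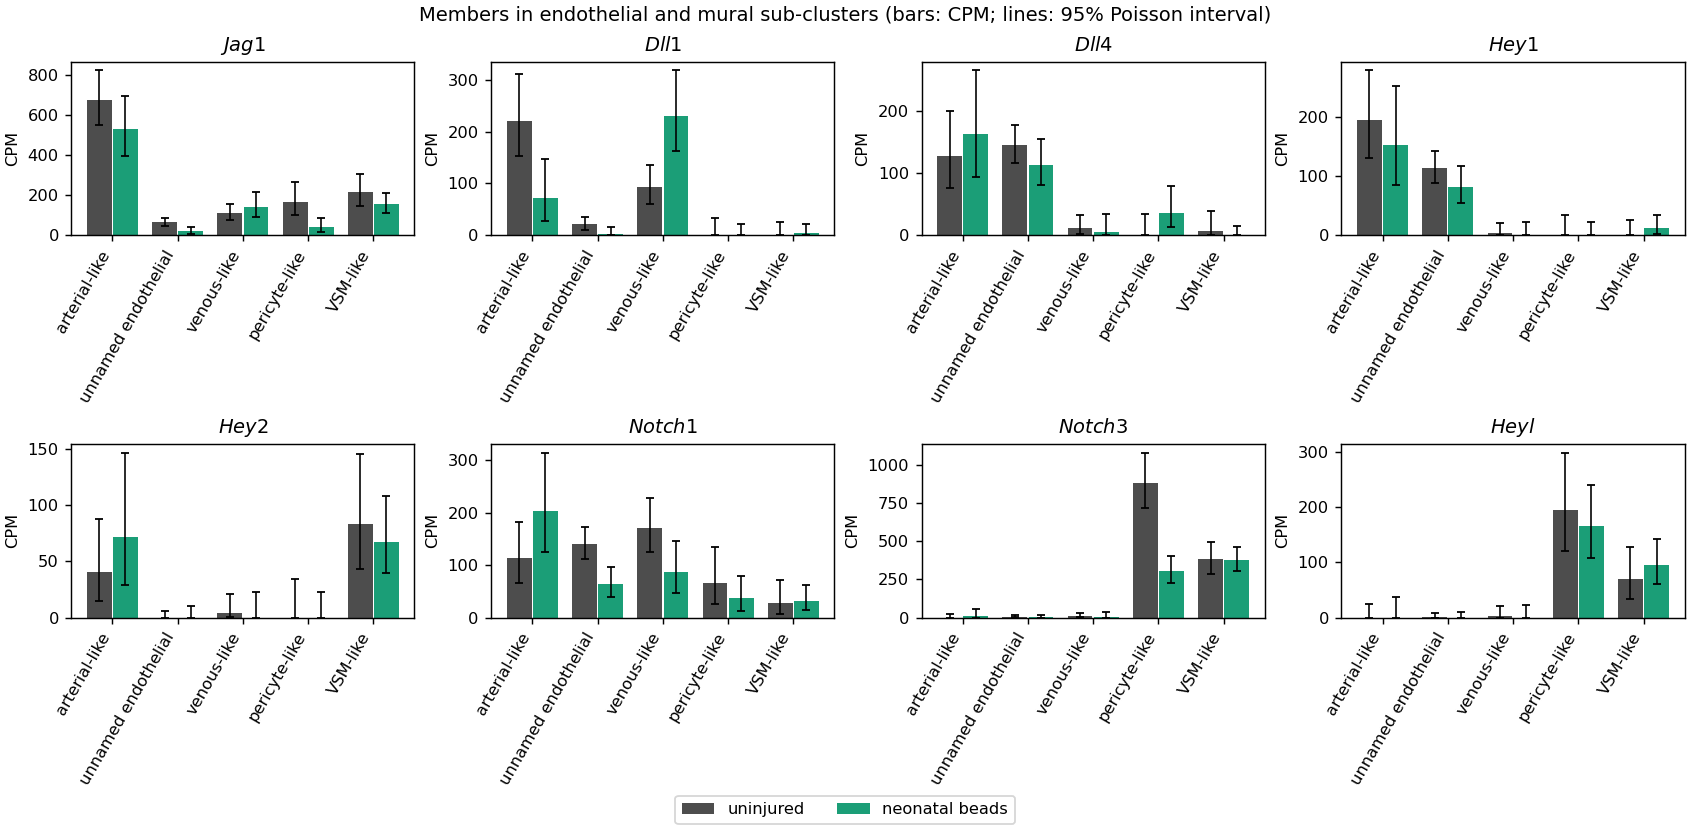
Levels (CPM, with exact 95% counting intervals) of 8 of the Notch genes in arterial-like, unnamed and venous-like endothelial cells and in pericyte-like and smooth muscle-like cells, in the uninjured and neonatal bead libraries. Jag1 is highest in arterial-like cells in both (676 and 529 CPM), and Hey2 is at 0 in pericyte-like cells in both.

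The members past 2-fold at 3 DPI were then counted in each class. All counts are over genes with at least 10 UMIs in the class in both libraries together. In endothelial-like cells Dll1, Dll4 and Hes1 were lower, 3 of 10 against 7.49% of all genes tested, and Notch3 was higher, 1 of 10 against 10.2%. In VSM/pericyte-like cells Hes1 was lower, 1 of 7 against 13.4%, and 0 of 7 were higher against 16.2%. In Schwann-like cells Hes1 was lower, 1 of 4 against 15.8%, and 0 of 4 were higher against 19.7%. In endoneurial-like cells Notch3 and Jag1 were higher, 2 of 5 against 19.2%, and 0 of 5 were lower against 10.1%. In epineurial-like cells Notch3 was higher, 1 of 6 against 11.1%, and Hes1 was lower, 1 of 6 against 4.84%. The endothelial-like counts alone rest on all 10 genes. A count of 1 among 4 to 7 genes is within about 1 gene of the share over all genes, and so shows nothing about the class as a whole. The median log2 fold of the Notch genes was -0.72 in endothelial-like cells, -0.15 in VSM/pericyte-like, -0.65 in Schwann-like, 0.93 in endoneurial-like and 0.33 in epineurial-like cells, beside 0.04, 0.14, 0.12, 0.23 and 0.14 for all genes tested.

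**Figure D5:**
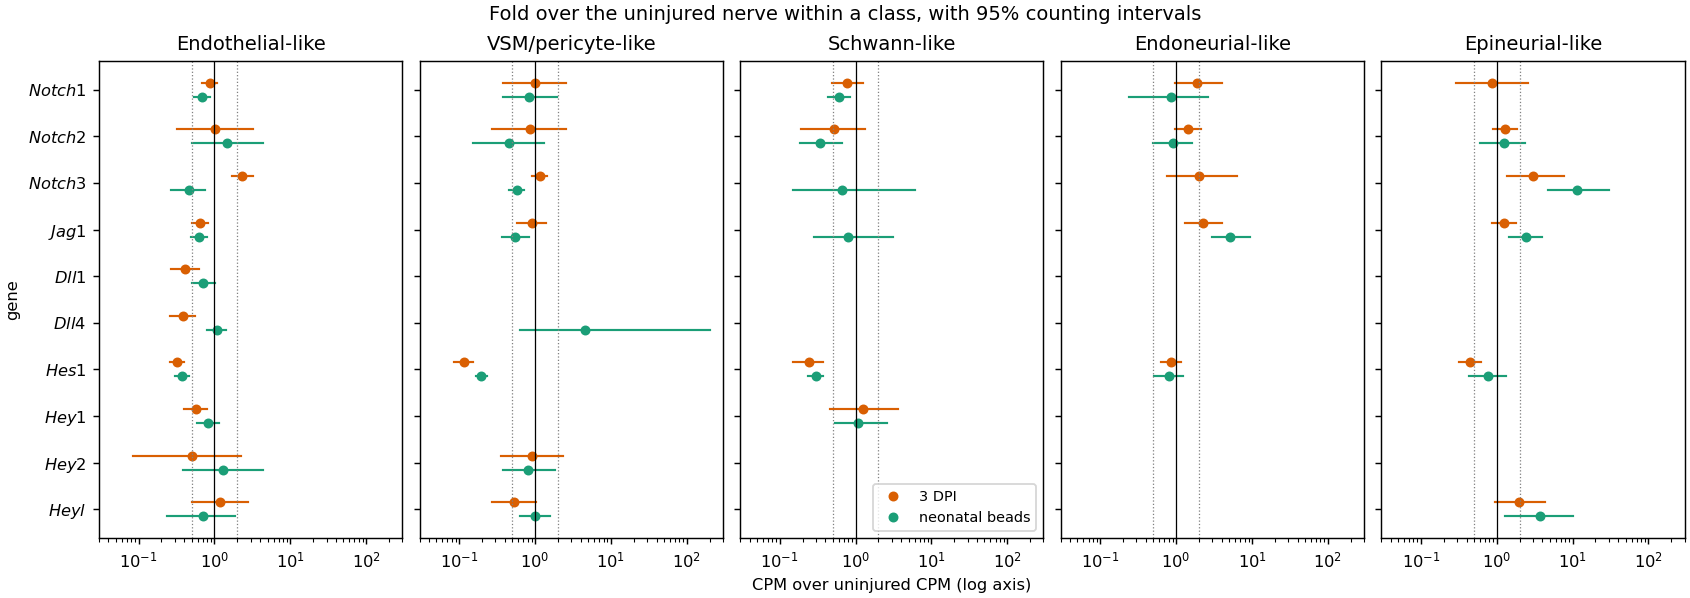
Fold over the uninjured nerve of each Notch gene, by class, at 3 DPI (orange) and in the neonatal bead library (green), on a log axis with 95% counting intervals and dotted lines at 2-fold. At 3 DPI Hes1 lies below the lower line in 4 of the 5 classes, from 0.116 in VSM/pericyte-like to 0.448 in epineurial-like cells, and lies at 0.850 in endoneurial-like cells.

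Set against the same uninjured library, which both comparisons share, the neonatal beads gave the following counts. In endothelial-like cells Notch3 and Hes1 were at least 2-fold lower, 2 of 10 against 12.5% of all genes tested, and 0 of 10 were higher against 11.7%. In VSM/pericyte-like cells Notch2 and Hes1 were lower, 2 of 8 against 10.8%, and Dll4 was higher, 1 of 8 against 18.9%, of which Notch2 rests on 8 and 9 UMIs and Dll4 on 9 and 1. Notch3 in endothelial-like cells was no longer past 2-fold without the sub-clusters that held mural markers (0.805). The neonatal one of these was led by immediate-early genes, and the remainders are not alike in make-up. In Schwann-like cells Notch2 and Hes1 were lower, 2 of 6 against 14.9%, and 0 of 6 were higher against 17.4%. In endoneurial-like cells Jag1 was higher, 1 of 4 against 16.5%, and 0 of 4 were lower against 13.5%. In epineurial-like cells Notch3, Jag1 and Heyl were higher, 3 of 5 against 16.5%, and 0 of 5 were lower against 13.1%. The medians of log2 fold were -0.50, -0.55, -0.66, -0.17 and 1.28 in these classes in turn, beside 0.10, 0.18, 0.05, 0.19 and 0.21 for all genes tested.

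The rest of the pathway was read from a list of 43 further genes for other receptors and ligands, proteases, glycosyltransferases, ubiquitin ligases, the nuclear complex and other targets. Of those with at least 10 UMIs, 12 of 39 were highest in a vascular class in the uninjured nerve, 14 of 41 at 3 DPI, 10 of 41 in the neonatal beads and 13 of 40 in the neonatal FACS library, shares near those of all genes. Dtx3, Lfng, Maml2, Notch4, Neurl1b, Nrarp and Jag2 were highest in a vascular class in all 4 libraries, chosen for naming after their values were seen. Lfng in endothelial-like cells was barely above its immune-like level in the uninjured nerve (64.0 and 63.9 CPM) and at 3 DPI (105 and 103 CPM). Notch4, the endothelial receptor, held 67.8, 71.6, 89.7 and 61.6 CPM in endothelial-like cells of the uninjured, 3 DPI, neonatal bead and neonatal FACS libraries. Jag2, another Jagged ligand, held 48.0, 20.6, 49.3 and 40.2 CPM there. At 3 DPI it was 2.33-fold lower than uninjured (fold 0.429, 0.254 to 0.701), and the 3 DPI level was the lowest of the 4, as for Dll4.

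At 3 DPI 2 of 37 pathway genes were at least 2-fold higher and 1 lower in endothelial-like cells, where 10.2% and 7.49% of all genes were: Dtx4 at 16.1 against 4.57 CPM, Hes6 at 17 against 6.09 CPM, and Jag2. In VSM/pericyte-like cells Nrarp, a target that feeds back on the Notch intracellular domain, was 43.8 CPM against 278 CPM uninjured, 6.36-fold lower, and Furin, which cleaves the receptor precursor, was higher at 52.5 against 23.8 CPM, 1 each of 20 against 13.4% and 16.2% of all genes. In Schwann-like cells 6 of 30 were higher and 4 lower, near the 19.7% and 15.8% of all genes. Among them were Furin at 102 against 24.2 CPM (fold 4.20, 2.09 to 9.34), the O-fucosyltransferase Pofut1 at 46.5 against 12.1 CPM (3.84, 1.41 to 13) and the acetyltransferase Kat2b at 53.2 against 129 CPM (0.414, 0.244 to 0.682). In endoneurial-like cells 6 of 35 were higher and 2 lower, against 19.2% and 10.1% of all genes, among them Dtx4 at 145 against 61.7 CPM, Furin at 94.7 against 29.0 CPM and the sheddase Adam17 at 74.0 against 31.8 CPM. In epineurial-like cells 1 of 33 was higher against 11.1%, Dtx4 at 51.8 against 24.1 CPM, and 0 were lower against 4.84%.

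In the neonatal beads 2 of 37 pathway genes were higher and 3 lower in endothelial-like cells, against 11.7% and 12.5% of all genes. Nrarp was 111 against 38.8 CPM (fold 2.87, 2.04 to 4.07) and the gamma-secretase subunit Psen2 38.4 against 89.9 CPM (0.428, 0.290 to 0.619). In VSM/pericyte-like cells 4 of 28 were higher and 5 lower, against 18.9% and 10.8%, including the ubiquitin ligase Dtx4 at 18.4 against 75.5 CPM. In Schwann-like cells 2 of 37 were higher and 2 lower, against 17.4% and 14.9%, with Kat2b at 34.9 against 129 CPM (0.271, 0.196 to 0.38). In endoneurial-like cells 4 of 33 were higher against 16.5%, including Adam10, the protease that cuts the ligand-bound receptor, at 90.8 against 42.1 CPM, and 5 were lower against 13.5%, including Rbpj itself at 5.79 against 25.3 CPM (0.229, 0.0445 to 0.746). In epineurial-like cells 3 of 31 were higher and 4 lower, against 16.5% and 13.1%, with Dtx3 at 221 against 79.3 CPM.

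Genes with the most similar patterns were ranked by Pearson's r of log2(CPM + 10) over 27 class-by-library groups of at least 20 cells, among 13277 genes. The groups share libraries and depth, and no p is given. Nearest to Notch3 were Colec11 (0.938), Ppp1r14a (0.935) and Rgs5 (0.922), the last a pericyte marker. Heyl was nearest to Abcc9 (0.936), Galnt16 (0.931) and Avpr1a (0.930), and Hey2 to Ldb3 (0.946), Rergl (0.939) and Dgkb (0.937). For Dll1 the nearest were Rassf9 (0.983), 4930578C19Rik (0.982) and Arhgef15 (0.972), and for Dll4 Rassf9 (0.953), Aqp7 (0.947) and Gm11730 (0.946). Hey1 was nearest to 1700109F18Rik (0.921), Pcdh17 (0.917) and Hoxb7 (0.903), and Jag1 to Atp2b4 (0.939), Pear1 (0.923) and Meox2 (0.893). Notch1 was nearest to Sypl (0.849), Hoxb4 (0.835) and Cdk17 (0.835), Notch2 to Lrp1 (0.893), Scpep1 (0.823) and Zfp385a (0.799), and Hes1 to Tgfb1i1 (0.844), Lzts2 (0.839) and Mprip (0.838). None of the 10 genes was among the 3 nearest of another.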

How the data were processed

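Drop-seq was run on dissociated sciatic nerve cells in 4 libraries. The authors deposited raw UMI counts per gene and barcode, made after the Drop-seq Alignment Cookbook 1.2 per the study's methods, on build mm10 per the submitters' processing notes. The sources used here give no aligner, annotation or number of animals per library. Every column was used (0 unused).

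Barcodes with at least 200 genes, at most 10% mitochondrial and at most 5% hemoglobin UMIs were kept, and the 5% with the highest scrublet score were removed as possible doublets in place of the caller's own threshold. Counts were scaled with scran 1.30.0 size factors and clustered in Seurat 5.3.0 (R 4.3.3; 2000 variable genes, 20 components, resolution 0.4), the neonatal libraries together. Vessel classes of at least 100 cells were clustered again (1000 genes, 10 components, resolution 0.6). The Notch genes and pathway list were kept out of the variable genes and markers. Counts were summed per class with Python 3.11.15, pandas 2.3.3, numpy 2.4.6 and scipy 1.17.1, with Poisson intervals for CPM, Clopper-Pearson intervals for shares and conditional binomial intervals for ratios. Genes passed the size rule at 2-fold, with a floor of 3 UMIs for a group at 0.

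The named genes are the 10 members, up to 5 pathway genes per comparison with the most UMIs among those past the rule, and the 3 most similar genes of each member (at least 50 UMIs). Members and lists were chosen with earlier results of these data known. The size rule and the interval of a ratio were checked on simulated Poisson counts of summed classes. The simulated differences were larger than 2-fold, in genes with more UMIs than several of those called here. The summing itself and differences between cells or libraries were not simulated. Alternatives changed 1 choice at a time.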

Additional observations from a re-analysis of the deposited data

Results flagged for a closer look

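Notch3 in the neonatal bead library differed from the uninjured nerve in opposite directions in epineurial-like and endothelial-like cells. Its fold was 11.4 in epineurial-like cells (18 and 8 UMIs) and 0.459 in endothelial-like cells (22 and 62 UMIs). The difference between these folds was not tested, since each condition had 1 library. Without the endothelial-like sub-clusters that held mural markers the endothelial fold was 0.805 (0.173 to 3.17). That name rests on a score relative to the highest sub-cluster of the same set of cells. The neonatal sub-cluster was led by immediate-early genes such as Egr1, Fos and Junb, and held 2354.5 CPM of mural markers in the beads. The uninjured venous-like sub-cluster, which stayed, held 2482.7 CPM, so the remainders are not alike.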

How the results depend on the processing

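Hes1 in VSM/pericyte-like cells at 3 DPI kept its direction and passed 2-fold in every alternative run. Counts of Notch genes past the rule moved as follows, and the cause was not tested. The number of genes tested and the share of all genes can change with the setting. They are not given here, so these counts cannot be read against the shares above. A minimum of 500 genes per barcode gave 2 lower at 3 DPI in epineurial-like (from 1) and 1 lower in neonatal VSM/pericyte-like cells (from 2). No doublet removal gave 2 higher at 3 DPI in epineurial-like cells. Resolution 0.8 gave 0 lower at 3 DPI and 1 higher neonatal in epineurial-like cells. Library size normalization gave 2 lower at 3 DPI in Schwann-like cells. Assigning each cell from its own markers gave, at 3 DPI, 2 lower in VSM/pericyte-like, 2 higher and 2 lower in Schwann-like, 4 higher in endoneurial-like and 0 higher and 0 lower in epineurial-like cells, and, neonatal, 1 lower in endothelial-like, 0 higher in VSM/pericyte-like, 1 higher in Schwann-like and 3 higher in endoneurial-like cells. Thinning to 500 UMIs gave 5 vascular at 3 DPI (from 9), with 0 higher and 1 lower in endothelial-like, 1 higher in VSM/pericyte-like, 1 higher in endoneurial-like and 0 lower in epineurial-like cells, and, neonatal, 1 higher among endothelial-like, 0 among VSM/pericyte-like, 2 among endoneurial-like and 0 among epineurial-like cells. A minimum of 20 UMIs gave 0 higher and 1 lower in neonatal VSM/pericyte-like cells. A fold of 1.5 gave, at 3 DPI, 6 lower in endothelial-like, 2 lower in VSM/pericyte-like, 2 lower in Schwann-like and 2 higher in epineurial-like cells, and 4 lower in neonatal VSM/pericyte-like cells. Without the endothelial-like sub-clusters that held mural markers, an alternative chosen after seeing the data, 1 was lower in neonatal endothelial-like cells (from 2). At most 5% mitochondrial UMIs moved no count.

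Thinning reversed Notch3 at 3 DPI in endothelial-like cells (fold 0.835) and Dll4 in neonatal VSM/pericyte-like cells (0.54). Of the 21 folds past the rule, 10 stayed past it in every alternative that gave a value. Of all counts 186 were unchanged within 1.5 times and 34 moved. Few UMIs limit Hey2, Dll1 in the neonatal FACS library and every gene in the 15 uninjured immune-like cells. No paired analysis was possible because each condition had 1 library and no result came from a test.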

Other observations

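At 3 DPI a cluster of 40 cells stayed unnamed, led by Il1b, Cxcl2, S100a9 and S100a8. In its 21966 UMIs there were 2 of Notch1, 3 of Notch2 and 2 of Jag1, and 0 of the other Notch genes.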
